A study of Mus musculus with 14 samples.

Results

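The 8 genes described here, *Ppara*, *Cpt1a*, *Acadm*, *Hadha*, *Ehhadh*, *Acot1*, *Bdh1* and *Pdk4*, encode a fatty acid sensor of the hepatocyte and steps of fat oxidation and ketone body formation. They were found by symbol in a table of read counts per gene, where they make up 8 of the 25212 genes listed. RNA of 14 livers was sequenced, 1 library per liver, and all 8 genes were among the 14252 genes that passed the filter on low counts. All mice were male C57BL/6 animals kept on a high-fat diet (HFD). The diet-induced obesity (DIO) group of 5 mice had no surgery. In the 4 mice of the gallbladder to ileum group (GB-IL) the common bile duct was ligated and the gallbladder joined to the ileum, so that bile entered the distal small intestine. The 5 mice of the Roux-en-Y gastric bypass group (RYGB) stayed on the HFD after the bypass. By the labels, the livers of both operated groups were taken 8 weeks after surgery. GB-IL liver 4 stands apart from the rest of its group. Tests of the 8 genes and total counts of other pathway genes called are given with and without it. Log2 fold changes of other pathway genes and calls of cell markers are from the fit with it. No liver of a sham-operated or pair-fed mouse was analysed here, so the operation and reduced food intake cannot be told apart from the diversion of bile or the bypass. The feeding state of the mice when the livers were taken was not found in the sources used here.

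PPAR-alpha, the product of *Ppara*, is a nuclear receptor that binds fatty acids, pairs with a retinoid X receptor and switches on genes of fat use in the fasted liver. Fatty acids enter mitochondria through the carnitine shuttle, are shortened by beta-oxidation, and in fasting the acetyl-CoA is turned into ketone bodies for other organs. Very long fatty acids and dicarboxylic acids are shortened in peroxisomes. Thioesterases release free fatty acids from acyl-CoA, and the pyruvate dehydrogenase kinases slow the burning of glucose while fat is used.

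The total count per liver ran from 18223135 to 28656631 with a median of 20310775, and no pair of libraries was identical. Levels are given as CPM, read counts relative to the size of the library, after scaling by the trimmed mean of M-values (TMM). The summed level of 19 hepatocyte markers ranged from 150353 to 173392 CPM in DIO, from 122305 to 158859 in GB-IL and from 148549 to 185117 in RYGB. In bulk liver, fewer hepatocytes and less RNA per hepatocyte cannot be told apart.

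Sequence is shown for 2 reasons. First, *Acot1* has near-identical relatives in its gene cluster, and reads from shared stretches can be left out of the counts or counted for the wrong gene. Of the different 50-base stretches in its annotated transcripts, 19.2% also occurred in another gene, mostly *Acot2*, *Acot5* and *Acot3*, against at most 2.04% for any other member. The coding sequences of the principal *Acot1* and *Acot2* transcripts (GENCODE M21) were identical at 1178 of 1232 aligned bases, or 95.6%, and the longest identical run was 273 bases. The 120 aligned bases without a gap that differ most, with differing bases in capitals, follow from coding base 767 of *Acot1* and 890 of *Acot2*.
Acot1: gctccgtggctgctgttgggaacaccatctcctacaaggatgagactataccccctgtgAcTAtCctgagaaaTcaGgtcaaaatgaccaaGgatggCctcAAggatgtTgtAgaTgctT
Acot2: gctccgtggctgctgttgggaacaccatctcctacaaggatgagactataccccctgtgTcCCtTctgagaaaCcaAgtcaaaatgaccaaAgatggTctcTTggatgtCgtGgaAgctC
Even this window held only 14 differences, and they lay in its second part, so the level of *Acot1* is uncertain.

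Second, *Acadm* and *Ehhadh* had levels that varied together over the livers (Pearson's r of log2 CPM 0.92, by rank 0.56). The DNA upstream of both starts is shown. PPAR-alpha is known to bind, with its partner, a direct repeat of AGGTCA spaced by 1 base, here written AGGTCANAGGTCA. The 250 bases before each annotated start were taken from RefSeq (GRCm38.p6) for all 8 genes, with 1 more start for *Bdh1*, and both strands were searched. The full repeat was in 0 of these 9 windows and in 0.0335% of the 32851 windows of the same length in the genome table. An exact match so rare could hardly occur in 9 windows, and inexact or more distant sites were not searched. Its absence therefore does not show that these genes lack a site. The half-site AGGTCA alone was in 14% of those windows and in the windows of *Cpt1a* and *Acadm*, on the minus strand of each sequence. It is in capitals below, read there as its reverse complement.
Acadm, chr3:153944644-153944893, minus strand: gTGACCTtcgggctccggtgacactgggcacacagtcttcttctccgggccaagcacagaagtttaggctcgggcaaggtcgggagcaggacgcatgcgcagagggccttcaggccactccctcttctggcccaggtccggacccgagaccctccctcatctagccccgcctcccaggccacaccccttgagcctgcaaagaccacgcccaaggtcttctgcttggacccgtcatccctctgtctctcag
Ehhadh, chr16:21787835-21788084, minus strand: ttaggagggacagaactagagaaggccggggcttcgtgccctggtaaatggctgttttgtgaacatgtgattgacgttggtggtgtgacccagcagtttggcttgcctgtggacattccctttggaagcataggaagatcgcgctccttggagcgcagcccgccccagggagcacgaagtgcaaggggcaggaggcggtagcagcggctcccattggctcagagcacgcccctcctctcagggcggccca
Neither window overlaps an annotated exon of its own gene.

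When levels were divided by the length of the principal transcript, *Acadm* was the highest of the 8 genes in DIO livers, at 199 ± 25.0 CPM per kilobase (mean ± SD, n = 5), and its range did not overlap that of the next gene. *Cpt1a* (125 ± 17.3), *Hadha* (104 ± 9.07), *Bdh1* (103 ± 16.2) and *Ehhadh* (88.4 ± 12.2) followed, and the range of each overlapped that of its neighbour. *Ppara* (26.4 ± 13.2) and *Acot1* (15.2 ± 7.52) lay lower and overlapped each other, and *Pdk4* was lowest at 1.75 ± 1.26. The order in RYGB livers put *Ehhadh* ahead of *Bdh1*, and in GB-IL livers *Pdk4* also moved ahead of *Acot1*. In both operated groups every pair of neighbours overlapped.

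The comparisons, made on counts with edgeR's quasi-likelihood test and each adjusted over all genes tested, set GB-IL and RYGB against DIO and then GB-IL against RYGB. At a false discovery rate (FDR) of 0.05, 0 of the 8 genes were called in any of the 3, where 3.26%, 0.00% and 0.00% of all genes tested were called. At an unadjusted p under 0.05 there were 3 members in GB-IL against DIO (*Acadm*, *Hadha* and *Acot1*, beside 23.1% of all genes), 0 in RYGB against DIO (8.71%) and 1 in GB-IL against RYGB (*Hadha*, beside 22.1%). DESeq2 called 2 members in GB-IL against DIO (*Hadha* and *Acot1*) and voom (limma) with a quality weight per liver called 3 (*Acadm*, *Ehhadh* and *Acot1*) in that comparison and 1 (*Acot1*) in RYGB against DIO. Over the main fit and the alternatives that left out no single liver, 0 to 1292 of all genes were called in GB-IL against DIO. In RYGB against DIO the range was 0 to 1690. Without GB-IL liver 4, edgeR called 6 members lower in GB-IL than in DIO and 6 lower than in RYGB, as described further on. Groups did not overlap for 0 members in any comparison (4.17%, 3.53% and 2.84% of all genes).

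**Figure D1:**
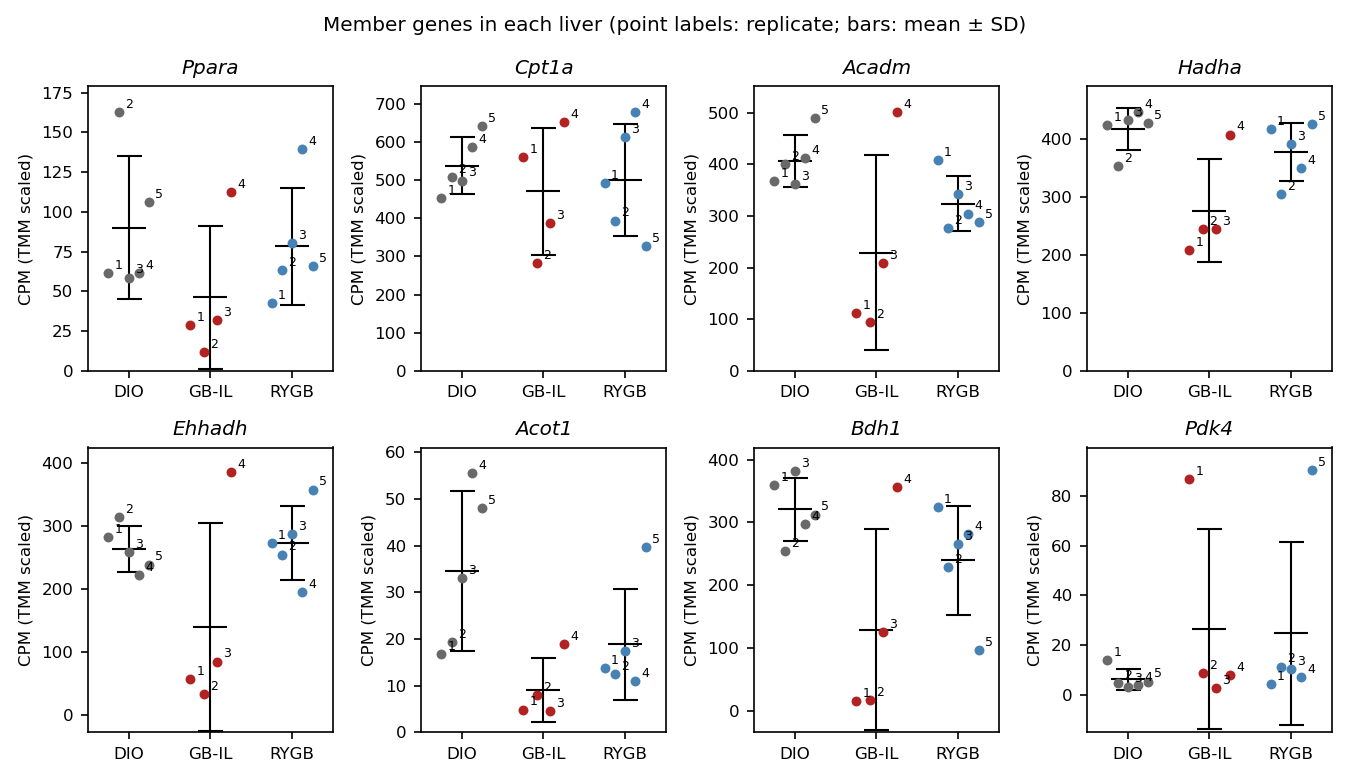
CPM (TMM scaled) of the 8 genes in every liver, by group, with the replicate number beside each point and a black bar for the mean ± SD (n = 5 DIO, 4 GB-IL, 5 RYGB). GB-IL livers 1 to 3 lie low for most genes and GB-IL liver 4 lies among or above the DIO livers, while *Pdk4* is high in GB-IL liver 1 and RYGB liver 5.

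*Ppara* (ENSMUSG00000022383, chromosome 15, 85734983 to 85802819 in GRCm38, plus strand), the receptor gene, measured 61.3, 163, 58.7, 61.7 and 106 CPM in DIO livers 1 to 5. In GB-IL livers 1 to 4 it measured 28.6, 11.9, 31.9 and 112 CPM, and in RYGB livers 1 to 5 it measured 42.7, 63.3, 80.2, 140 and 65.9 CPM. The first 3 GB-IL livers were below every DIO and every RYGB liver, and the fourth was above all DIO livers but the second. On the log2 scale GB-IL differed from DIO by -0.96 ± 0.54 (SE, edgeR adjusted p = 0.287), with a 95% interval from -2.12 to 0.20. Against DIO, RYGB differed by -0.20 ± 0.50 (adjusted p = 0.933), and without DIO liver 2 the sign turned, to 0.13.

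*Cpt1a* (ENSMUSG00000024900, chromosome 19, 3322334 to 3385733, plus strand) encodes the liver carnitine palmitoyltransferase, the gate for long-chain fatty acids into mitochondria. It measured 454, 509, 498, 586 and 641 CPM in DIO, 559, 282, 388 and 652 CPM in GB-IL, and 492, 394, 613, 678 and 326 CPM in RYGB. The 3 groups overlapped widely, with 2 GB-IL and 2 RYGB livers below every DIO liver and 1 of each above. GB-IL differed from DIO by -0.19 ± 0.27 on the log2 scale (edgeR adjusted p = 0.668), RYGB differed from DIO by -0.10 ± 0.26, and GB-IL from RYGB by -0.09 ± 0.27. The interval of the first ran from -0.77 to 0.39, the narrowest of the 8 genes after *Hadha*.

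*Acadm* (ENSMUSG00000062908, chromosome 3, 153922357 to 153944632, minus strand) encodes medium-chain acyl-CoA dehydrogenase, which takes the first step of each round of mitochondrial beta-oxidation for medium chains. It measured 367, 401, 362, 412 and 489 CPM in DIO and 112, 94.8, 209 and 501 CPM in GB-IL. Livers 1 to 3 of GB-IL were below every DIO liver and liver 4 was above them all. In RYGB livers it measured 407, 276, 342, 305 and 287 CPM, 4 of 5 below the lowest DIO liver. The log2 fold change was -0.83 ± 0.39 for GB-IL against DIO (edgeR adjusted p = 0.214) and -0.33 ± 0.36 for RYGB against DIO (adjusted p = 0.830).

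*Hadha* (ENSMUSG00000025745, chromosome 5, 30118304 to 30155162, minus strand) encodes the alpha subunit of the mitochondrial trifunctional protein, which carries out the later steps of beta-oxidation for long chains. It measured 425, 354, 434, 447 and 428 CPM in DIO, 209, 245, 244 and 408 CPM in GB-IL, and 417, 305, 392, 351 and 426 CPM in RYGB. The same 3 GB-IL livers were below all livers of both other groups, and GB-IL liver 4 was within their range. GB-IL was at -0.59 ± 0.21 on the log2 scale against DIO (edgeR adjusted p = 0.122) and at -0.45 ± 0.21 against RYGB (adjusted p = 0.223). RYGB was at -0.14 ± 0.20 against DIO.

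*Ehhadh* (ENSMUSG00000022853, chromosome 16, 21761287 to 21787807, minus strand) encodes the bifunctional enzyme of peroxisomal beta-oxidation and is a well-known PPAR-alpha target. It measured 283, 315, 259, 223 and 239 CPM in DIO and 57.2, 33.4, 85.2 and 387 CPM in GB-IL. These first 3 GB-IL livers were the lowest of all 14 and GB-IL liver 4 was the highest. RYGB livers, at 273, 255, 288, 196 and 358 CPM, surrounded the DIO range. On the log2 scale GB-IL was at -0.91 ± 0.52 against DIO (edgeR adjusted p = 0.298) and at -0.96 ± 0.52 against RYGB (adjusted p = 0.286), and RYGB at 0.06 ± 0.48 against DIO.

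*Acot1* (ENSMUSG00000072949, chromosome 12, 84009490 to 84018371, plus strand) encodes a cytosolic acyl-CoA thioesterase and came closest to the threshold. It measured 16.9, 19.3, 33.0, 55.4 and 48.0 CPM in DIO, 4.89, 7.91, 4.50 and 19.0 CPM in GB-IL, and 13.8, 12.5, 17.3, 11.0 and 39.6 CPM in RYGB. Again the first 3 GB-IL livers were below every DIO and every RYGB liver. The log2 fold change was -1.92 ± 0.52 for GB-IL against DIO (edgeR adjusted p = 0.0580) and -1.05 ± 0.51 for GB-IL against RYGB (adjusted p = 0.237), and -0.87 ± 0.47 for RYGB against DIO (adjusted p = 0.619). With the counts of *Acot2* added, an alternative chosen after seeing the data, the values were -1.55 for GB-IL against DIO (adjusted p = 0.118), -0.97 for GB-IL against RYGB (adjusted p = 0.289) and -0.58 for RYGB against DIO (adjusted p = 0.773). Without RYGB liver 5 the adjusted p of GB-IL against DIO was 0.0386, since the spread is shared by the 3 groups.

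*Bdh1* (ENSMUSG00000046598, chromosome 16, 31422280 to 31458901, plus strand) encodes the mitochondrial enzyme that turns acetoacetate into beta-hydroxybutyrate, the last step of ketone body formation. It measured 359, 254, 381, 297 and 312 CPM in DIO and 15.7, 17.4, 126 and 357 CPM in GB-IL. Its ratio of highest to lowest liver was 22.8 in GB-IL and 3.37 in RYGB. In RYGB it measured 325, 229, 265, 281 and 96.4 CPM, with liver 5 well below the others. GB-IL was at -1.31 ± 0.70 on the log2 scale against DIO (edgeR adjusted p = 0.267) and at -0.89 ± 0.69 against RYGB, and RYGB at -0.42 ± 0.64 against DIO.

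*Pdk4* (ENSMUSG00000019577, chromosome 6, 5483351 to 5496309, minus strand) encodes a pyruvate dehydrogenase kinase and was the 1 member with a higher mean in both operated groups. It measured 13.8, 4.53, 3.21, 3.68 and 5.24 CPM in DIO, 86.9, 8.58, 2.63 and 7.82 CPM in GB-IL, and 4.10, 11.3, 10.4, 7.12 and 90.6 CPM in RYGB. In each operated group 1 liver was high and the others lay below the highest DIO liver. The log2 fold change was 2.12 ± 1.01 for GB-IL against DIO (edgeR adjusted p = 0.222) and 2.02 ± 0.97 for RYGB against DIO (adjusted p = 0.578). It was 0.06 ± 0.88 without GB-IL liver 1 and 0.44 ± 0.80 without RYGB liver 5, so 1 liver decided each value. GB-IL liver 1 also held 1530 CPM of 6 skeletal muscle markers, of which *Acta1* gave 566 and *Myh1* 483 CPM, against 0.625 to 2.86 CPM in the 13 other livers. Muscle is known to express *Pdk4*, and its part in the *Pdk4* level of GB-IL liver 1 was not tested. In RYGB liver 5 the muscle markers summed to 1.41 CPM.

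**Figure D2:**
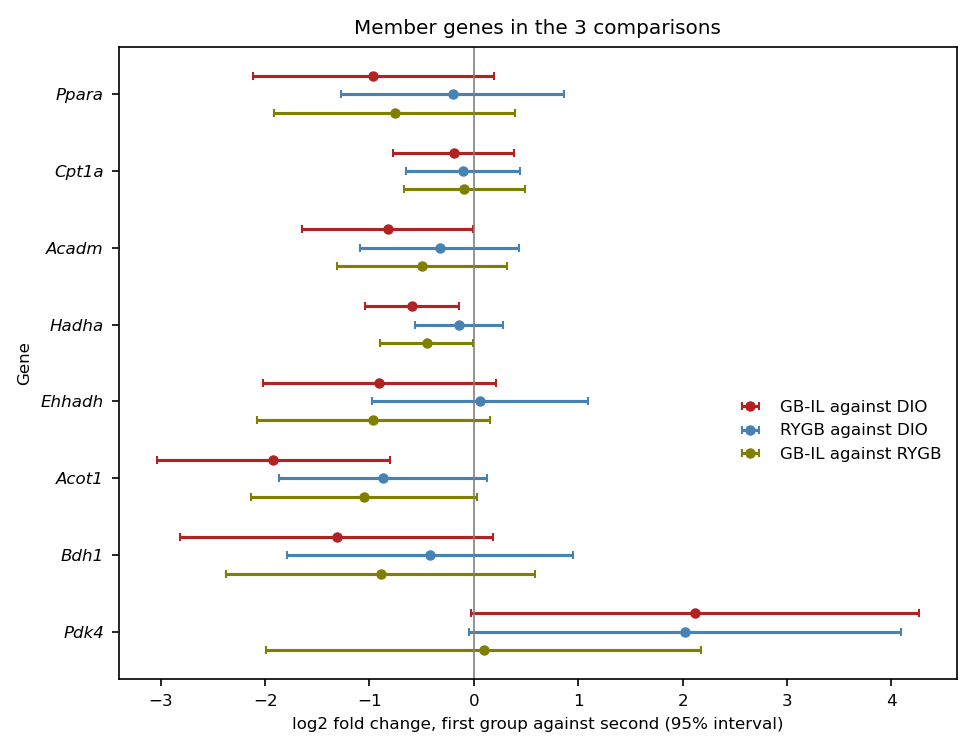
Log2 fold change (x axis, first group against second) of the 8 genes with the 95% interval of edgeR's quasi-likelihood fit, for the 3 comparisons. For GB-IL against DIO 7 of 8 points lie below 0, and the intervals of *Acadm*, *Hadha* and *Acot1* exclude 0 before adjustment. For RYGB against DIO every interval includes 0.

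The members that were low in GB-IL were low in the same livers. GB-IL liver 1 was below the lowest DIO liver for 6 of the 8 genes, liver 2 for 7, liver 3 for all 8 and liver 4 for 0. Of all genes tested, 37.5%, 35.9%, 18.3% and 14.4% were below in these livers. Above the highest DIO liver were 1 member in GB-IL liver 1 and 3 in liver 4, beside 36.1% and 15.6% of all genes. In RYGB livers 1 to 5, 2, 5, 1, 4 and 3 members were below the lowest DIO liver, beside 16.1%, 17.7%, 17.6%, 19.1% and 26.1% of all genes. In GB-IL liver 4 *Ppara*, *Cpt1a*, *Acadm*, *Ehhadh*, *Bdh1* and *Pdk4* were above the DIO mean.

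**Figure D3:**
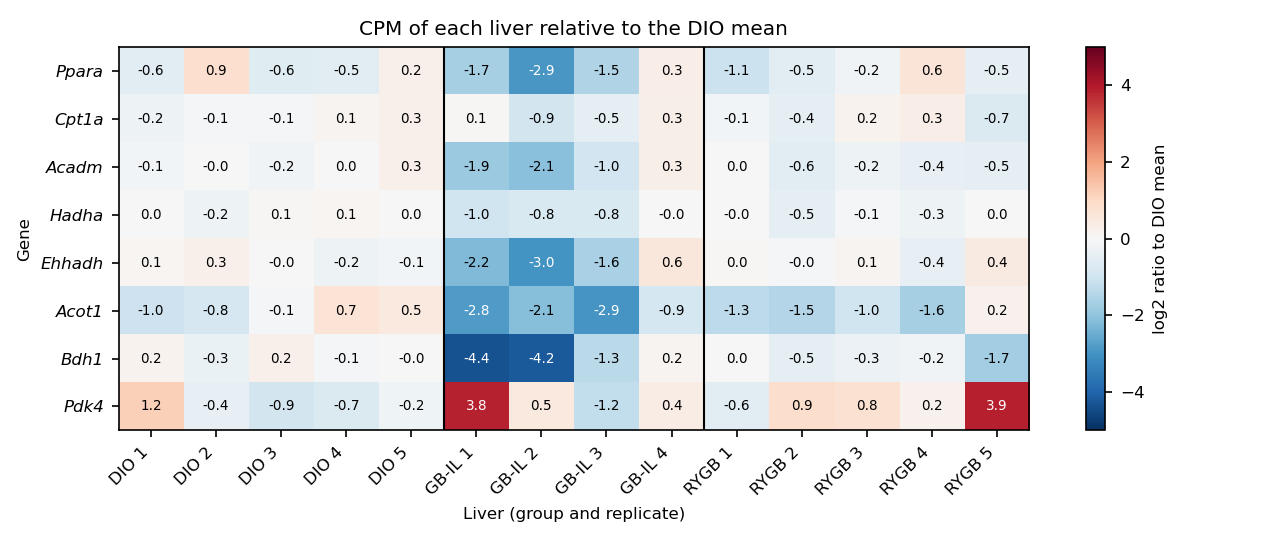
Log2 ratio of CPM in each liver (columns) to the DIO mean, for the 8 genes (rows). Blue marks lower and red higher levels. GB-IL livers 1 to 3 are blue for *Ppara*, *Acadm*, *Hadha*, *Ehhadh*, *Acot1* and *Bdh1*, and in GB-IL liver 4 *Acot1* is blue, *Hadha* is near 0 and the other 6 genes are above the DIO mean.

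Leaving out GB-IL liver 4 changed the call for 6 members. *Ppara* then fell against DIO, with a log2 fold change of -1.91 ± 0.47 (edgeR adjusted p = 0.0117), as did *Acadm* (-1.56 ± 0.26, adjusted p = 0.00183) and *Hadha* (-0.85 ± 0.18, adjusted p = 0.00575). *Ehhadh* (-2.18 ± 0.30, adjusted p = 0.000568), *Acot1* (-2.59 ± 0.52, adjusted p = 0.00425) and *Bdh1* (-2.60 ± 0.63, adjusted p = 0.0113) fell further. These 6 of 8 stand beside 24.6% of all genes called in that fit, 9.27% in the lower direction. *Cpt1a* (-0.40 ± 0.28, adjusted p = 0.289) and *Pdk4* (2.41 ± 1.05, adjusted p = 0.101) were not called. Against RYGB the same 6 genes were called, from -0.71 ± 0.18 for *Hadha* (adjusted p = 0.0173) to -2.23 ± 0.30 for *Ehhadh* (adjusted p = 0.00134), beside 21.5% of all genes, 8.09% lower. With this liver the 6 genes were not called. GB-IL liver 4 stands apart in the levels of these same genes, so the lower p-values without it follow in part from choosing it. Without GB-IL liver 1 in its place, the edgeR adjusted p of the members against DIO ran from 0.177 (*Acot1*) to 0.979 (*Pdk4*). In GB-IL liver 4 the levels of most members, and of the cholangiocyte and neutrophil markers given next, lay in or near the DIO range. Its macrophage markers (1145 CPM) and stellate cell markers (421 CPM) lay above every DIO liver. Why this liver differed from its group, an exchange of labels included, was not tested. The labels put it in GB-IL, and the fit of all 14 livers is the one reported.

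Markers of cholangiocytes and neutrophils moved with this division. The summed level of 9 cholangiocyte markers was 48.2 to 77.4 CPM in DIO and 76.8 to 96.3 CPM in RYGB. It was 317, 256 and 223 CPM in GB-IL livers 1 to 3 and 73.6 CPM in GB-IL liver 4. The 10 neutrophil markers summed to 124, 64.7 and 371 CPM in GB-IL livers 1 to 3 and to 7.27 CPM in liver 4, against 5.87 to 12.7 CPM in DIO, where the defining marker *Ly6g* had no count. RYGB liver 5, low for *Bdh1* and high for *Pdk4*, had 136 CPM of neutrophil markers, where the RYGB median was 11.5 CPM. The macrophage and stellate cell lists did not follow it. The 14 macrophage markers summed to 1022, 1636, 2795 and 1145 CPM in GB-IL livers 1 to 4, against 548 to 972 CPM in DIO and 597 to 1420 CPM in RYGB. The 11 stellate cell markers summed to 912, 338, 299 and 421 CPM in GB-IL, against 245 to 383 CPM in DIO and 358 to 826 CPM in RYGB. In GB-IL against DIO edgeR called 6 of 8 tested neutrophil markers, 6 of 14 macrophage markers and 3 of 7 tested cholangiocyte markers higher, beside 3.15% of all genes. The filter on low counts could pass a marker held mainly by operated livers, and neutrophil sums were low in DIO. Those calls are therefore descriptions. EdgeR called 0 of 19 hepatocyte markers in either direction. Of these, 7 had an unadjusted p under 0.05, 4 higher and 3 lower, beside 23.1% of all genes. The part of these cells in the levels of the 8 genes was not tested.

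The members' neighbours in the pathway were taken from 8 lists of well-known genes, which together hold 102 genes besides the members, and 101 of them passed the filter. Against DIO, 80 of 101 had a log2 fold change below 0 in GB-IL and 21 above 0, with a median of -0.49 against 0.04 over all genes, of which 46.9% were below 0. EdgeR called 2 of them higher and 0 lower, beside 3.15% and 0.112% of all genes. In RYGB against DIO 75 of 101 were below 0, with a median of -0.31 against 0.01 over all genes (48.5% below 0), and 0 were called. In GB-IL against RYGB 74 were below 0, with a median of -0.27 against 0.03 (47.5% below 0), and 0 were called. Groups did not overlap for 6 genes lower and 1 higher in GB-IL against DIO (4.17% of all genes). For RYGB against DIO these were 8 lower and 1 higher (3.53%), and for GB-IL against RYGB 0 lower and 1 higher (2.84%). Of the single livers, GB-IL 1 to 3 were below the lowest DIO liver for 65, 70 and 57 of the 101 genes, that is 64.4%, 69.3% and 56.4%, against 37.5%, 35.9% and 18.3% of all genes tested. GB-IL liver 4 was below for 11.9%, against 14.4% of all genes. In RYGB livers 1 to 5 the shares were 28.7%, 55.4%, 36.6%, 43.6% and 59.4%, against 16.1% to 26.1% of all genes.

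**Figure D4:**
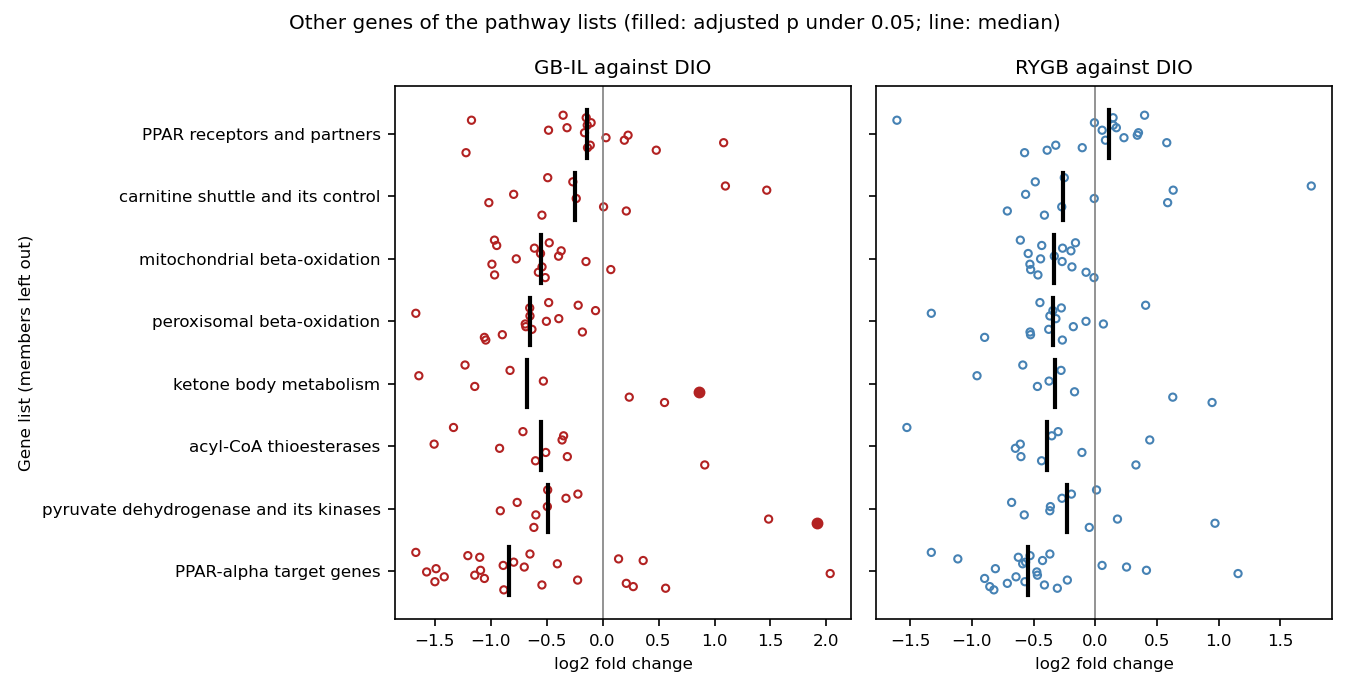
Log2 fold change (x axis) of the other genes in each of the 8 pathway lists (y axis) in GB-IL and in RYGB against DIO, 1 point per gene, with the list median as a black line and filled points for an adjusted p under 0.05. Medians are below 0 in 8 of 8 lists for GB-IL and in 7 of 8 for RYGB, and the 2 filled points are *Oxct1* and *Pdp1*.

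Among receptors and partners of PPAR-alpha, 11 of 16 were below 0 in GB-IL against DIO and 0 were called. *Rxrg*, a retinoid X receptor, measured 6.25 ± 1.43 CPM in DIO (n = 5) and 2.65 ± 1.96 in GB-IL (n = 4), a log2 fold change of -1.22 ± 0.42 (edgeR adjusted p = 0.110), with no overlap. The highest GB-IL liver held 4.80 CPM of *Rxrg* and the lowest DIO liver 4.97 CPM. *Ppargc1a*, a coactivator of PPAR-alpha, measured 11.2 ± 4.42 CPM in DIO and 23.8 ± 15.0 CPM in GB-IL (1.08 ± 0.40, adjusted p = 0.135). In RYGB against DIO, *Lpin1*, whose product also assists PPAR-alpha, had the lowest value of the list, -1.61 ± 0.53 (adjusted p = 0.446), and DIO livers themselves ranged from 136 to 975 CPM.

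In the carnitine shuttle 6 of 10 genes were below 0 in GB-IL against DIO. *Cpt2*, the inner membrane partner of *Cpt1a*, measured 197 ± 33.1 CPM in DIO, 114 ± 37.1 in GB-IL and 133 ± 28.3 in RYGB. The log2 fold changes were -0.79 ± 0.24 in GB-IL against DIO (edgeR adjusted p = 0.0785) and -0.56 ± 0.22 in RYGB against DIO (adjusted p = 0.517). *Slc25a20*, the carnitine carrier, was at -0.54 ± 0.24 in GB-IL (adjusted p = 0.191), and *Slc22a5*, the carnitine importer, at -0.71 ± 0.25 in RYGB (adjusted p = 0.468), where all 5 livers were below every DIO liver.

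Of the 15 other genes of mitochondrial beta-oxidation, 14 were below 0 in GB-IL and 15 in RYGB against DIO, with medians of -0.55 and -0.33. In GB-IL 11 of 15 had an unadjusted p under 0.05, all lower, beside 6.43% of all genes in that direction. *Acaa2*, the thiolase, measured 959, 850, 1334, 1368 and 1231 CPM in DIO and 363, 491, 653 and 845 CPM in GB-IL, so that all 4 GB-IL livers were below every DIO liver. Its log2 fold change was -0.97 ± 0.26 (edgeR adjusted p = 0.0586) in GB-IL and -0.61 ± 0.24 (adjusted p = 0.529) in RYGB against DIO. *Acad11*, an acyl-CoA dehydrogenase, was at -0.95 ± 0.34 in GB-IL (adjusted p = 0.128) and *Acads*, the short-chain dehydrogenase, at -0.54 ± 0.24 in RYGB (adjusted p = 0.550).

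Of the 15 other peroxisomal genes all 15 were below 0 in GB-IL against DIO, with a median of -0.65, and 0 were called. *Hsd17b4*, the second bifunctional enzyme beside *Ehhadh*, measured 148, 138, 256 and 525 CPM in GB-IL against 462 to 541 CPM in DIO, and again GB-IL liver 4 was within the DIO range. Its log2 fold change was -0.90 ± 0.33 (edgeR adjusted p = 0.133). *Ech1*, an isomerase, was at -0.63 ± 0.24 in GB-IL (adjusted p = 0.151). In RYGB *Eci2* was at -0.53 ± 0.23 (adjusted p = 0.547) and *Pex11a*, a factor of peroxisome division, at -0.90 ± 0.48 (adjusted p = 0.620).

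In ketone body metabolism 5 of 8 genes were below 0 in GB-IL against DIO. *Oxct1*, which starts the use of ketone bodies and is known to be scarce in hepatocytes, was called higher, at 0.86 ± 0.22 (edgeR adjusted p = 0.0496), from 4.80 ± 0.575 CPM in DIO to 8.73 ± 2.38 in GB-IL, higher in 4 of 4 livers. The call held in 9 of 25 alternatives and in 1 of 14 fits that left out a liver. The monocarboxylate carriers *Slc16a6* (0.95 ± 0.39, adjusted p = 0.544) and *Slc16a1* (0.63 ± 0.30, adjusted p = 0.577) had the smallest p-values of the list in RYGB against DIO, both higher.

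Of 10 tested thioesterases besides *Acot1*, 9 were below 0 in GB-IL and 8 in RYGB against DIO. *Acot12* was at -0.71 ± 0.23 (edgeR adjusted p = 0.0928) and *Acot11* at -1.33 ± 0.44 (adjusted p = 0.101) in GB-IL. In RYGB *Acot11* measured 4.78 ± 0.936 CPM against 13.8 ± 4.86 in DIO, below every DIO liver in 5 of 5, at -1.53 ± 0.41 (adjusted p = 0.348). *Acot7* was at -0.60 ± 0.20 in RYGB (adjusted p = 0.462).

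Around pyruvate dehydrogenase, the enzyme that *Pdk4* inhibits, 8 of 10 genes were below 0 in GB-IL against DIO. *Pdp1*, a phosphatase that opposes the kinases, was called higher, at 1.92 ± 0.47 (edgeR adjusted p = 0.0398), from 0.920 ± 0.390 CPM in DIO to 3.50 ± 2.13 in GB-IL, with 3 of 4 livers above every DIO liver. This call held in 10 of 24 alternatives and in 4 of 14 fits that left out a liver. *Pdp1* is known in muscle too. GB-IL liver 1, with its muscle markers, held 4.47 CPM of *Pdp1*, and GB-IL liver 2, with 2.86 CPM of those markers, held the highest level, 6.04 CPM. The part of muscle in the *Pdp1* levels was not tested. *Pdhb*, a subunit of the enzyme itself, was below every DIO liver in 4 of 4 GB-IL and 5 of 5 RYGB livers, at -0.76 ± 0.21 (adjusted p = 0.0628) and -0.68 ± 0.20 (adjusted p = 0.387). The highest GB-IL liver held 110 CPM of *Pdhb* and the lowest DIO liver 111 CPM. In RYGB *Pdp1* was at 0.97 ± 0.45 (adjusted p = 0.570).

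The list of 24 other known PPAR-alpha targets, which shares genes with the lists above, had 18 below 0 in GB-IL and 20 in RYGB against DIO, with medians of -0.84 and -0.55, and 0 were called. *Retsat*, a retinol saturase, measured 107, 86.3, 103 and 447 CPM in GB-IL against 458 to 618 CPM in DIO, a fold of 0.354 with a 95% interval from 0.179 to 0.699 (edgeR adjusted p = 0.0840). *Angptl4*, a secreted lipase inhibitor, was at -1.11 ± 0.43 in RYGB (adjusted p = 0.510). Without GB-IL liver 4 edgeR called 7 pathway genes higher and 45 lower in GB-IL against DIO, beside 15.4% and 9.27% of all genes. Of those called lower, 10 were of mitochondrial and 9 of peroxisomal beta-oxidation, and 14 were among the 24 targets. Against RYGB it called 6 higher and 31 lower, beside 21.5% of all genes in either direction. The pathway genes named above for GB-IL against DIO were then all called, with edgeR adjusted p from 0.000534 (*Retsat*) to 0.0290 (*Ppargc1a*). As with the members, this follows in part from choosing that liver.

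Over the 14 livers, Pearson's r of log2 CPM between members other than *Pdk4* ranged from 0.25 to 0.94 in 21 pairs, with a median of 0.71. The highest were *Acadm* with *Bdh1* (0.94) and with *Ehhadh* (0.92), and *Cpt1a* with *Acot1* was the lowest. Once group means were removed, the median was 0.59. By rank, *Acadm* was at 0.78 with *Bdh1* and at 0.56 with *Ehhadh*, and *Hadha* with *Acot1* was the highest pair, at 0.90. Pearson's r of *Pdk4* with the 7 others ran from -0.56 with *Bdh1* to -0.12 with *Ehhadh*, and from -0.61 to 0.14 once group means were removed. By rank it was positive with *Ehhadh* (0.19) and *Ppara* (0.029). The livers share the 3 groups, and GB-IL livers 1 to 3 weigh on every pair, so these values are descriptions.

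The genes whose pattern was most like each member's were sought among 12696 genes. *Ppara* was closest to *Pdpr* (r = 0.99), which encodes the regulatory subunit of pyruvate dehydrogenase phosphatase, and to *Rab11fip1* (0.98). *Hadha* was closest to *Hadhb* (0.96), the beta subunit of the same protein, and to *Khdrbs3* (0.95). *Bdh1* was closest to *Acsf2* (0.99), an acyl-CoA synthetase, and *Pipox* (0.98), and *Acadm* to *Zadh2* and *Atg3* (both 0.97). *Ehhadh* was closest to *Tfcp2l1* (0.96) and *Sh3bgrl2* (0.95), and *Acot1* to *Abhd6* (0.91) and *Pex11a* (0.87). *Cpt1a* was closest to *Eif2ak1* (0.90) and *Cdh13* (0.89), and *Pdk4* to *Prkab2* (0.94), a subunit of AMP-activated kinase, and *Desi2* (0.93). By rank these pairs ranged from 0.71 (*Bdh1* with *Acsf2*) to 0.99 (*Ppara* with *Rab11fip1*), and *Hadha* with *Hadhb* was at 0.76.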

How the data were processed

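Liver RNA of 14 mice was sequenced on the Illumina HiSeq, aligned to mm10 with TopHat 2 and counted per gene with HTSeq by the authors. They describe amplifying the RNA with a kit, while the labels name 2 library kits, for mRNA and for total RNA. The values the authors deposited are whole read counts per gene, not normalized. For tool versions, gene annotation and strandedness of counting, the entry is: not given in the sources used here. Which liver had which of the 2 kits in the labels is not stated, so a kit effect and the groups cannot be told apart.

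The analysis used edgeR 4.0.16 in R 4.3.3. Genes were kept by filterByExpr, scaled by TMM, and fitted by quasi-likelihood over all 14 livers, each of the 3 groups having its own mean. P-values were adjusted by Benjamini-Hochberg over all genes tested, at an FDR of 0.05. Log2 CPM used a prior count of 2. Marker sums are CPM of the total count without TMM. DESeq2 1.42.0 and limma 3.58.1 served as alternatives, with other scalings, filters and each liver left out. On simulated counts with 200 genes changed by a log2 fold of 2, the test recovered 172 and made 8 false calls in GB-IL against DIO (14146 genes), 179 and 6 in RYGB against DIO (14120 genes), and 168 and 3 in GB-IL against RYGB (14124 genes). The simulated livers had 1 spread per gene and none stood apart from its group. The recovery therefore does not show the power of the test for the 8 genes. Gene positions and lengths are from GENCODE M21, which matched 24701 of 25212 identifiers. *Acot1* and *Acot2* were aligned with Biopython 1.88 in Python 3.11.15.

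The members and gene lists were chosen with earlier results of these data known. Besides the members, the text names for each list the 2 genes (mean of at least 1 CPM) with the smallest unadjusted p in GB-IL and in RYGB against DIO, and for each member the 2 genes of highest Pearson correlation. A few genes chosen in this way are left out and not reported here. The markers *Acta1*, *Myh1* and *Ly6g* were named after their values were seen. Nothing in the sources says how the mice of a group were housed or operated on together, so p-values measure the spread between these livers.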

Additional observations from a re-analysis of the deposited data

Results flagged for a closer look

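In each gene and group, the highest and the lowest liver were compared with their nearest neighbour by Dixon's ratio of gap to range. Of 24 sets of gene and group, 6 held a liver past the 95% limit. For independent sets of normal values that limit marks about 1 set in 20. The CPM were not shown to be normal and the sets share the same livers, so the count is a description.

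*Pdk4* was marked in all 3 groups, each time for 1 high liver: 13.8 CPM in DIO liver 1 with 5.24 next, 86.9 CPM in GB-IL liver 1 with 8.58 next, and 90.6 CPM in RYGB liver 5 with 11.3 next. The skeletal muscle markers summed to 0.872 CPM in that DIO liver, 1530 CPM in that GB-IL liver and 1.41 CPM in that RYGB liver. Without DIO liver 1 the log2 fold changes of *Pdk4* were 2.67 in GB-IL and 2.57 in RYGB against DIO (edgeR adjusted p = 0.198 and 0.508).

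*Ehhadh* was marked for GB-IL liver 4, at 387 CPM with 85.2 CPM next. *Acot1* was marked for RYGB liver 5, at 39.6 CPM with 17.3 CPM next. *Hadha* was marked for DIO liver 2, at 354 CPM with 425 CPM next.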

How the results depend on the processing

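Across alternatives, the 8 members gave 603 values, of which 568 kept their direction and side of the threshold, 20 passed it and 15 changed sign. Members called in GB-IL against DIO numbered 2 with DESeq2, 3 with voom and quality weights, 1 with edgeR's exact test, and from 0 to 6 when 1 liver was left out. In RYGB against DIO voom called 1, and in GB-IL against RYGB leaving out 1 liver gave 0 to 6. Other pathway genes called in GB-IL against DIO numbered 1 with hepatocyte scaling, 13 with DESeq2, 18 with voom, 10 with the exact test, 1 without a filter, 1 with a mean of at least 50 counts, 0 in the fit of 2 groups, and from 0 to 52 when 1 liver was left out. In RYGB against DIO they numbered 1 with DESeq2, 28 with voom and 2 in the fit of 2 groups. In GB-IL against RYGB they numbered 3, 1 and 2 with DESeq2, voom and the exact test, and from 0 to 37 when 1 liver was left out. Of all genes, 0 to 1292 were called in GB-IL against DIO over the main fit and alternatives that left out no single liver. The ranges were 0 to 1690 in RYGB against DIO and 0 to 845 in GB-IL against RYGB. When 1 liver was left out, they were 0 to 3572, 0 to 5 and 0 to 3120 in these comparisons. GB-IL liver 4 gave the highest omission counts of members and of pathway genes. The cause was not tested.

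Signs changed for 6 member values, which lay between -0.20 and 0.09 in the fit of all livers. Hepatocyte scaling, which moved the median of all genes to 0.16, 0.26 and -0.10 in GB-IL against DIO, RYGB against DIO and GB-IL against RYGB, gave *Cpt1a* 0.12, *Hadha* 0.13 and *Ppara* 0.0037 in RYGB against DIO, and *Pdk4* -0.21 in GB-IL against RYGB, where voom gave -1.02. When 1 liver was left out, *Pdk4* in GB-IL against RYGB ranged from -1.97 to 1.69 and *Cpt1a* there from -0.30 to 0.078. In RYGB against DIO *Cpt1a* ranged from -0.24 to 0.029, *Ehhadh* from -0.050 to 0.16 and *Ppara* from -0.52 to 0.13.

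Replicate numbers do not mark shared animals, and deviations of livers with the same number correlated from -0.38 to 0.38. With the replicate number as a block, 0 members were called in each comparison, and 0 pathway genes in GB-IL against DIO. Of 748 values of the other named pathway genes, 671 kept their side of the threshold and none changed sign. The DIO means of *Pdk4*, *Oxct1* and *Pdp1* were low, at 6.09, 4.80 and 0.920 CPM. These are 63 to 264, 83 to 101 and 12 to 30 counts per DIO liver, so *Pdp1* rests on few counts.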
